A study of Mus musculus with 6 samples.

Results

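Transcripts of 10 genes of the E2F and retinoblastoma families were described in mouse MA9 leukaemia cells with and without Gata2, all treated with Nutlin. The genes were 3 activator E2Fs (E2f1, E2f2, E2f3), 2 E2Fs that act mainly as repressors together with pocket proteins (E2f4, E2f5), 2 atypical E2Fs (E2f7, E2f8) and the 3 pocket proteins (Rb1, Rbl1, Rbl2). They were taken by symbol from the 49585 genes of the deposited count table, all 10 were found, and all 10 passed the filter on low counts, as did 13744 genes in all. The members were chosen by family with their CPM in the f/f and KO libraries in view. Values of the members are therefore given as a description, and counts of members called in a fit over all genes are printed beside the share over all genes without being read as support.

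MA9 commonly stands for the MLL-AF9 fusion, an oncogene of acute myeloid leukaemia. The cells came from bone marrow. One genotype had Gata2 flanked by loxP sites (Gata2 f/f), and the other lacked Gata2 (Gata2 KO, genotype Gata2 -/-, named Cre in the sample descriptions). Every culture was grown in serum with the cytokines IL-3, IL-6 and SCF and was kept for 18 h in 5 uM Nutlin, which blocks the binding of MDM2 to p53. Poly(A) RNA was sequenced from 3 samples per genotype, numbered 1 to 3. Effects of Cre and of the deletion cannot be told apart, and how Cre was delivered or driven is not given in the sources used here. Untreated cultures were not analysed here, so no value below measures an effect of Nutlin. The series' design calls the samples independent without saying whether they were separate leukaemias or cultures, so their spread may be partly technical.

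E2F factors bind DNA as dimers with a DP partner and control genes of S phase entry, DNA replication and mitosis. Pocket proteins bind E2Fs and repress those genes until cyclin-dependent kinases phosphorylate them. RB, the product of Rb1, binds mostly the activators, whereas p107 (Rbl1) and p130 (Rbl2) bind E2F4 and E2F5 and join the MuvB proteins in the DREAM complex, through which p53 and its target p21 lower cell cycle transcripts. E2F7 and E2F8 repress without a DP partner or a pocket protein, and their genes are themselves E2F targets, as are E2f1, E2f2 and Rbl1. E2f2 is also known for its role in blood cells, where its loss disturbs red cell and lymphocyte maturation.

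Total counts ran from 17138687 to 26440960 per library. Levels are given in CPM, the share of a gene in a library whose size was scaled by TMM (the trimmed mean of M values), and levels of different genes are set side by side only in CPM per kb of merged exons. The targeted gene, Gata2, was at 33.6 (library 1), 22.3 (library 2) and 18.4 CPM (library 3) in f/f. The KO libraries 1 and 3 had 5.44 and 4.33 CPM, but the library labelled Gata2 KO 2 had 43.3 CPM, the highest of the 6, so at this gene it goes against its label. All 12 progenitor and myeloid markers listed for these leukaemias passed the filter, but not all were even over the libraries. Kit had 32 reads in KO 3 and 716 to 1751 elsewhere. Cd34 had 98 and 159 reads in KO 1 and KO 3, 683 in the library labelled KO 2 and 616 to 880 in f/f. Hoxa9 varied less, with 2939 to 4836 reads. Of the markers of other cells, 5 of 6 for B cells and 5 of 7 for T cells stayed under 1 CPM in every library. For red cells it was only 4 of 12, and for megakaryocytes 3 of 6. Pax5, a defining gene of B cells, and Slc4a1, 1 of the 12 red cell markers, had no count in any library. Other markers of these lineages did have counts, with Klf1 at up to 1.55 CPM and Ppbp at up to 17.6 CPM of the unscaled total. The library labelled KO 2 also stood apart from KO 1 and KO 3 at Cd34 and at 2 of these markers. Itga2b had 152 reads there, 1 and 6 in KO 1 and KO 3 and 32 to 46 in f/f. Gata1 had 83 reads there and 3 to 10 elsewhere. Whether the label of that library is right was not tested.

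The promoters are shown because several of these genes are regulated by the factors they encode. RefSeq windows were given for 7 of the 10 genes, and each window is the 250 bases before a RefSeq start on GRCm38.p6, the mm10 assembly. The words searched, on both strands, were TTCCCGC (found in E2f7 and E2f3), TTCGCGC (found in Rbl1), TTGCCGC (found in none of the members) and TTGGCGC (found in E2f7 and E2f8), which are the core of the E2F consensus. A second search used TTTGAA or its variant TTCGAA, the words of the CHR element of G2/M genes. No E2F word overlapped another or a CHR word in these windows. In the sequences below capitals mark the E2F words.
E2f7, chr10:110745189-110745438, plus strand: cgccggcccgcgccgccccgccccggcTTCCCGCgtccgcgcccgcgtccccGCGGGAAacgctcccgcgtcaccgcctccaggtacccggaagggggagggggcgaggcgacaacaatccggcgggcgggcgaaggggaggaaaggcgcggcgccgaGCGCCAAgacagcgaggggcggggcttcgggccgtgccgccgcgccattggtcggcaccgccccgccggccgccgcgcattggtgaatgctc
E2f8, chr7:48881597-48881846, minus strand: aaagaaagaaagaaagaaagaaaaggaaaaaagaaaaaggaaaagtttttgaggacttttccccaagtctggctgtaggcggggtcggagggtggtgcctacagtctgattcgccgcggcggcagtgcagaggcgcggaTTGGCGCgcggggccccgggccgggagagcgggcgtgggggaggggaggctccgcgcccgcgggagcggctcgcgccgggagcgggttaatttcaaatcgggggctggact
Rbl1, chr2:157204535-157204784, minus strand: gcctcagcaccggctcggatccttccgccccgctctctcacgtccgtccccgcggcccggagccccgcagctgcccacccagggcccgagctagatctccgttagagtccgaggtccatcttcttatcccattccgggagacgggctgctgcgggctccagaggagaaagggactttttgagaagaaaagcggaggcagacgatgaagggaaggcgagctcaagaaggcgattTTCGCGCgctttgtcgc
E2f3, chr13:29986064-29986313, minus strand: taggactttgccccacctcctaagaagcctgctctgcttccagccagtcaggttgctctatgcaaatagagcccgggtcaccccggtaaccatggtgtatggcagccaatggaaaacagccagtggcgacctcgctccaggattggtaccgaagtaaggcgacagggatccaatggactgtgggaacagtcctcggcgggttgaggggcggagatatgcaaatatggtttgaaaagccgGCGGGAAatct
E2f2, chr4:136172024-136172273, plus strand: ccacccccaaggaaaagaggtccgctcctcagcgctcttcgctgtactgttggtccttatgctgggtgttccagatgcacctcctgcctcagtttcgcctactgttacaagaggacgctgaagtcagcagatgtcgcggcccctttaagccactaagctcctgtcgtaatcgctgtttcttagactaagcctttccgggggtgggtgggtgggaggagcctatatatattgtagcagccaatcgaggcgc
The E2f7 window held 3 E2F words, and the E2f8, Rbl1 and E2f3 windows held 1 each. In Rbl1 the word lies 17 to 11 bases before the start and in E2f3 11 to 5 bases before it, on the other strand. E2f3 also has a TTTGAA 23 to 18 bases and E2f8 one 20 to 15 bases before the start. The first of 2 E2f2 windows, shown above because E2f2 stands apart by genotype, holds neither kind of word. The second E2f2 window, not shown, holds a TTTGAA 31 to 26 bases before its start. The RefSeq starts of these E2f2 windows lie at -120 and 8388 bases from the GENCODE start, where a minus sign means before it. The single E2f1 window holds neither kind of word. The RefSeq start that follows the E2f1 window lies 466 bases inside the gene as GENCODE draws it, so the window is not the region before the annotated start. Counted per gene, an E2F word occurred in 4 of the 7 members with a window (57.1%) and in 15.8% of the 9849 tested genes with a window. A CHR word occurred in 4 of the same 7 members and in 14.8% of those genes. Counted per window, the shares over all 32841 RefSeq windows were 7.89% for an E2F word and 17.1% for a CHR word. A match is a string of letters and does not show that a factor binds there.

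E2f2 was the member with higher levels in every library labelled Gata2 KO than in every Gata2 f/f library. It encodes an activator E2F, and its gene (ENSMUSG00000018983.9) lies on GRCm38 chromosome 4, 136172394 to 136196057, plus strand. In f/f 1, 2 and 3 it had 46.8, 38.1 and 57.6 CPM, and in the libraries labelled KO 1, 2 and 3 it had 112, 70.3 and 68.5 CPM. Means of 47.5 ± 9.75 and 83.6 ± 24.7 CPM (SD, n = 3 per genotype) gave a log2 fold change of 0.82 ± 0.29 (SE), or 1.76-fold. The library labelled KO 2, which kept Gata2 transcripts, lay with the other KO libraries at this gene. Within numbers 1, 2 and 3 the KO library was 2.39, 1.84 and 1.19 times its f/f counterpart. Without Gata2 KO 1, the library with the highest level, the log2 fold change was 0.53. Among all 13744 genes, 2.64% had non-overlapping ranges with higher values in KO and 2.78% with lower values.

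E2f1, the activator best known for driving both S phase and cell death, did not separate the genotypes. In f/f it had 55.9, 43.1 and 57.6 CPM, in KO it had 75.0, 48.5 and 45.5 CPM, and the ranges overlapped, with KO 1 above the other 5 libraries. The log2 fold change was 0.11 ± 0.27, with -0.17 when KO 1 was left out and -0.011 when f/f 2 was. E2f3, the activator with isoforms from separate promoters, which counts per gene do not resolve, was at 36.0, 31.3 and 26.1 CPM in f/f and 32.6, 28.0 and 15.2 CPM in KO. Its KO library 3 was the lowest of the 6, the other KO libraries lay within the f/f range, and the log2 fold change was -0.30 ± 0.33 (-0.06 without KO 3).

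Set against each other within a library, the activators differed in make-up between the genotypes. Such a ratio does not depend on how library sizes are scaled. Per kb of merged exons, the ratio of E2f2 to E2f1 was 0.540, 0.572 and 0.646 in Gata2 f/f 1, 2 and 3 and 0.966, 0.938 and 0.973 in the libraries labelled Gata2 KO 1, 2 and 3. The group means were 0.586 ± 0.0547 and 0.959 ± 0.0188 (SD, n = 3 each). The 3 KO libraries thus lay within a narrow span at this ratio although their E2f1 levels differed 1.65-fold and their Gata2 levels 10.0-fold. E2f2 made up 28.2, 28.7 and 33.9% of the summed activator level in f/f and 43.5, 41.2 and 44.9% in KO. The share of E2f3 was 19.5, 21.1 and 13.8% in f/f and 11.4, 14.8 and 8.94% in KO, with overlapping groups. This pair of genes was picked after its values were seen, and the ratio is a description of these libraries.

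**Figure D1:**
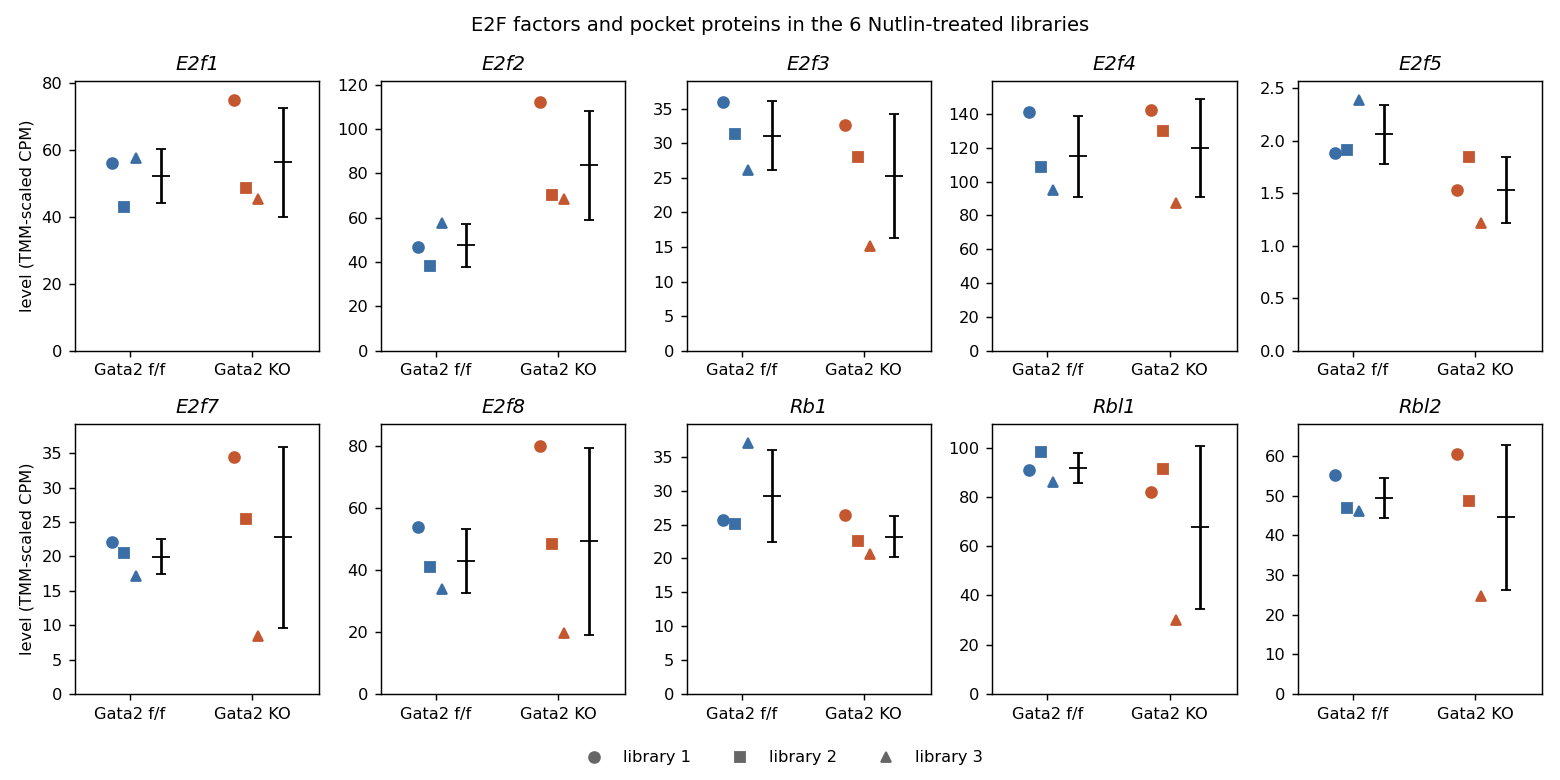
Level of each member in TMM-scaled CPM (y axis, from 0) by genotype (x axis), with 1 symbol per library (circle 1, square 2, triangle 3) and the mean ± SD of 3 libraries in black. The groups separate upward for E2f2 (68.5 to 112 CPM in KO, 38.1 to 57.6 CPM in f/f) and downward for E2f5. Of all genes tested, 2.64% separate upward and 2.78% downward. The KO triangle is the lowest point for 8 of the 10 genes, as it is for 31.9% of all genes tested.

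**Figure D2:**
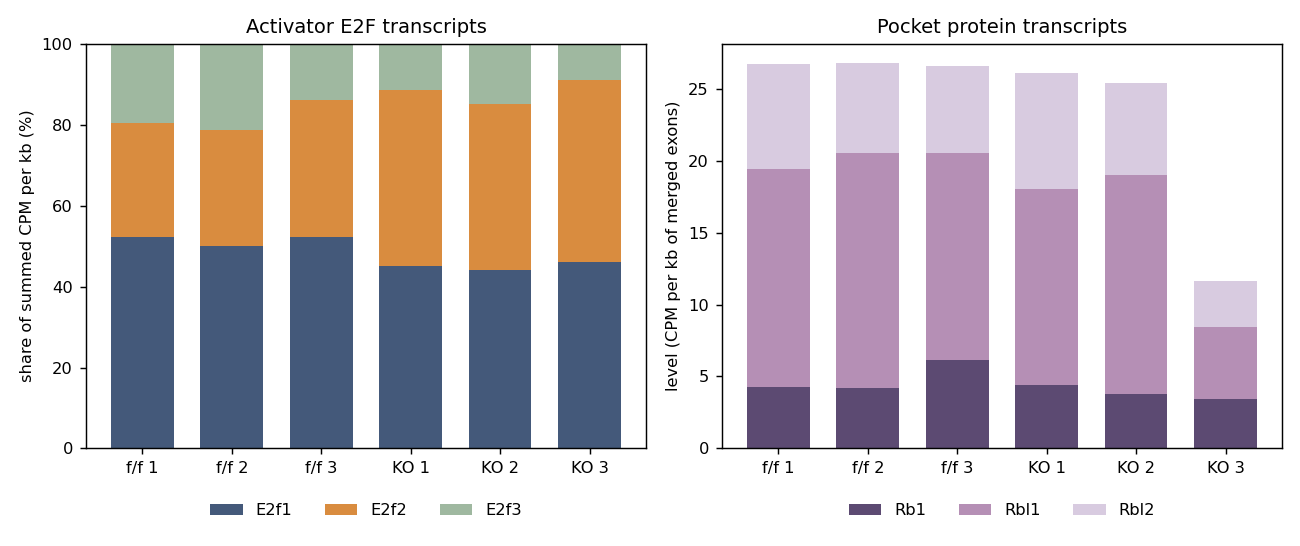
Left, share of E2f1, E2f2 and E2f3 in their summed level per kb of merged exons (%) in each of the 6 libraries; right, stacked levels of Rb1, Rbl1 and Rbl2 in CPM per kb. E2f2 takes 28.2 to 33.9% in f/f and 41.2 to 44.9% in KO, and the pocket protein sum is 25.4 to 26.8 CPM per kb in 5 libraries and 11.7 in Gata2 KO 3.

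E2f4 was the most abundant member per unit length. It encodes the main E2F of resting cells, which carries p107 or p130 to promoters. Its mean over the 6 libraries was 47.9 CPM per kb, and its lowest library (35.6) was above the highest of the next gene, E2f1 (13.7 to 23.8 CPM per kb). E2f4 transcripts were 46.6 to 54.8% of the summed level of the 7 E2Fs in f/f and 44.6 to 52.6% in KO. In CPM the levels were 141, 109 and 95.0 in f/f and 143, 130 and 87.2 in KO. The log2 fold change of 0.06 ± 0.27 had the other sign in 5 of the 14 alternative fits, among them those without Gata2 f/f 3 (-0.098), without KO 1 (-0.099) and without the library labelled KO 2 (-0.0049).

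E2f5, the second E2F that works with p107 and p130, was close to the limit of what these libraries can measure. It had 33, 43 and 60 reads in f/f and 32, 34 and 29 reads in KO. In CPM this was 1.88, 1.92 and 2.39 against 1.53, 1.85 and 1.22. The groups did not overlap, with KO lower (as for 2.78% of all genes tested). However, the exact Poisson 95% interval of the 29 reads in KO 3 reached from 19.4 to 41.6. That of the 33 reads in f/f 1 reached from 22.7 to 46.3. These intervals cover counting error only. The log2 fold change was -0.43 ± 0.38, and 26 bases of its exons are shared with an opposite-strand gene.

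Below E2f4, neighbours in the order of mean levels per kb overlapped in their ranges. The order was E2f1 (17.2), E2f2 (13.4), Rbl1 (13.3), E2f8 (8.47), Rbl2 (6.22), E2f3 (5.19), Rb1 (4.36), E2f7 (2.37) and E2f5 (1.01 CPM per kb).

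The atypical repressors E2f7 and E2f8 had the widest spread among the members, and it lay among the KO libraries. E2f8 had 54.0, 40.9 and 33.8 CPM in f/f, against 80.0, 48.5 and 19.6 CPM in KO 1, 2 and 3. E2f7 was at 22.1, 20.5 and 17.2 CPM in f/f and at 34.4, 25.5 and 8.45 CPM in KO. For both genes KO 1 was the highest (as for 19.5% of all genes) and KO 3 the lowest of the 6 libraries (as for 31.9%), about 4.08-fold apart, and the f/f libraries lay between them. The log2 fold changes of 0.20 ± 0.48 for E2f8 and 0.19 ± 0.47 for E2f7 describe no common shift. Without KO 1 they were -0.35 and -0.25, and without KO 3 they were 0.56 and 0.56. E2f8 made up 75.9 to 80.2% of the pair's summed level per kb in all 6 libraries.

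Of the pocket proteins, Rbl1 was the most abundant per kb in every library. Rbl1 encodes p107, the pocket protein of cycling cells. The f/f libraries had 91.0, 98.2 and 86.0 CPM. Among the KO libraries, number 1 had 81.9 CPM, that labelled KO 2 had 91.3 CPM and KO 3 had 29.9 CPM. The log2 fold change of -0.44 ± 0.40 came mostly from that library and was -0.11 without it. Rbl2, which encodes p130, the pocket protein of resting cells, was at 55.3, 47.1 and 46.1 CPM in f/f and at 60.6, 48.6 and 24.6 CPM in KO. KO 3 was again below all other libraries, and the log2 fold change of -0.15 ± 0.34 became 0.12 without it.

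Rb1 had another layout than its relatives. It was at 25.6, 25.1 and 37.1 CPM in f/f and at 26.5, 22.6 and 20.6 CPM in KO. The f/f library 3 stood above the other 5, which lay between 20.6 and 26.5 CPM. Its log2 fold change was -0.33 ± 0.26, and -0.17 without f/f 3. Exons of Rb1 share 488 and 408 bases with Rcbtb2 and Lpar6 on the opposite strand, which had at most 878 and 116 reads. Whether counting used strand is not given in the sources used here, so an unmeasured part of its reads may belong to these genes. The same limit applies to Rbl2, which shares 693 bases with Aktip (at most 370 reads). E2f8 shares 610 bases with Gm2788 (at most 24 reads).

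Summed over the 3 genes, the pocket protein level was 26.7, 26.8 and 26.6 CPM per kb in Gata2 f/f, 26.1 in KO 1, 25.4 in the library labelled KO 2 and 11.7 in KO 3. Activator sums were 33.9, 27.2 and 34.8 CPM per kb in f/f and 52.7, 34.9 and 31.2 in KO. The ratio of activators to pocket proteins was therefore 1.27, 1.02 and 1.31 in f/f and 2.02, 1.37 and 2.68 in KO. All KO libraries were above all f/f libraries. The activator sum was above the f/f range in KO 1 and just above it in the library labelled KO 2 (34.9 against 34.8), and within it in KO 3. The pocket protein sum was below every f/f library in all 3 KO libraries, by a small amount in KO 1 and the library labelled KO 2 and by more in KO 3. These ratios too were picked after their values were seen.

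No member passed edgeR's quasi-likelihood test between genotypes at an adjusted p of 0.05, in a fit where 0% of the 13744 genes did. At an unadjusted p under 0.05 the count was 1 member, against 0.728% of genes higher and 0.517% lower in KO. DESeq2 called 0 members (0.0509% of genes), and DESeq2 with the replicate number as a block called 0 members (1.62% of genes). Since the list was drawn up on this contrast, nothing is read from these counts. Without the library labelled KO 2 the log2 fold change was 0.92 for E2f2, -0.72 for Rbl1, 0.21 for E2f8 and 0.10 for E2f7, and of the 10 members only E2f4 had another sign than with it.

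The difference between genotypes changed with the library number for most members. E2f1, E2f4, E2f7, E2f8 and Rbl2 were higher in the KO than in the f/f library of numbers 1 and 2 and lower in that of number 3, a layout shared by 15.7% of all genes tested. For E2f8 the log2 differences were 0.56, 0.25 and -0.79 in numbers 1, 2 and 3, and for E2f7 they were 0.64, 0.31 and -1.02. For E2f1 they were 0.42, 0.17 and -0.34. E2f3, E2f5 and Rbl1 were lower in the KO library of every number (17.7% of genes), with Rbl1 at -0.15, -0.11 and -1.52. E2f2 was higher in every number (20.7% of genes), at 1.26, 0.88 and 0.25. In number 3 the KO library was lower for 9 of the 10 members, E2f2 being the exception. The share of all genes lower there was not counted. The median log2 difference in number 3 was -0.82 over the members and -0.0053 over all genes tested. Each number holds 1 library per genotype, so these differences have no error of their own and were not tested against each other.

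**Figure D3:**
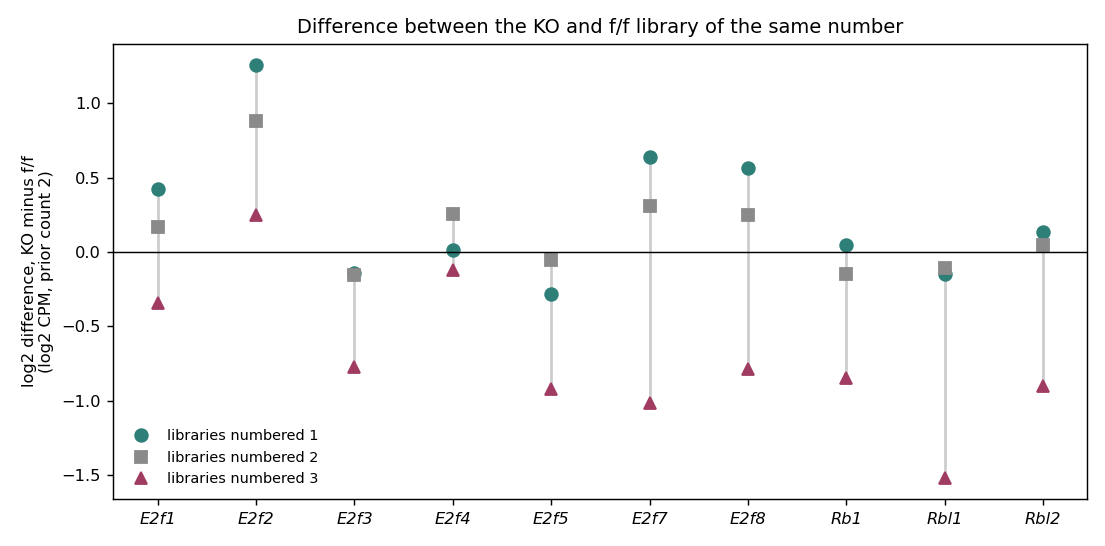
Difference in log2 CPM (prior count 2) between the KO and the f/f library of the same number (y axis) for each member (x axis), with 1 symbol per number and a grey line from the lowest to the highest. All points of number 3 except that of E2f2 (0.25) are below 0, down to -1.52 for Rbl1, and all 3 points of E2f2 are above 0. The median over all genes tested is -0.0053 in number 3.

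Differences between library numbers were fitted over all genes with the genotype in the model (edgeR, quasi-likelihood F-test over both number terms). The members and the lists below were chosen with the same 6 libraries in view, so these counts are not independent of the choice and are given as a description. No member was called, while 9.09% of genes were. At an unadjusted p under 0.05 the members were E2f8 and E2f4, 2 of 10, against 30.7% of genes. The fitted log2 difference of E2f8 was -1.32 between numbers 3 and 1 and -0.58 between numbers 2 and 1. Between numbers 3 and 1 it was -1.15 for E2f7 and -0.75 for Rbl2. DESeq2's likelihood ratio test called E2f8 and no other member. Without Gata2 f/f 3, when number 3 rests on KO 3 alone, 5 members were called (E2f3, E2f7, E2f8, Rbl1 and Rbl2), and the count over all genes went from 1249 to 3460.

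Among the members, the 2 atypical E2Fs were each other's closest relative, and so were E2f3 and Rbl2, and E2f5 and Rb1. Likeness was measured as the root mean square difference between the profiles of 2 genes, in log2 CPM centred on each gene's mean over the 6 libraries, where 0 means the same profile. Of the 45 pairs of members, E2f3 with Rbl2 (0.11) and E2f7 with E2f8 (0.14) were the closest, followed by E2f5 with Rb1 (0.18). E2f2 was the least like the rest, and E2f2 with Rbl1 (0.86) was the most distant pair. Among the 9925 genes with a mean of at least 5 CPM, the nearest to E2f8 were Phf2 (0.06), Zfp526 (0.07) and Arid2 (0.07), and the nearest to Rbl2 was Sun1 (0.02). E2f4 had the replication licensing gene Cdt1 among its 3 nearest (0.05), with Rbm15 and Ccdc134 (0.04 each). The nearest to E2f1 was Tyk2 (0.05). E2f2 had no neighbour as close, its nearest being Triobp (0.16), Caskin2 (0.17) and Sh2b3 (0.17). Triobp was at 60.5 to 70.9 CPM in f/f and 85.5 to 143 CPM in KO.

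Partners of the E2Fs, the MuvB core and the B-Myb and FoxM1 factors formed a list of 11 genes, of which 3 had positive log2 fold changes (27.3%, against 52.5% of all genes) with a median of -0.25 (0.02 over all genes). Without KO 3 the median of this list was -0.039. None was called between genotypes by edgeR or DESeq2, and 0 of 11 had an unadjusted p under 0.05 in edgeR. E2f6, the E2F that represses without pocket proteins, was at 64.0, 54.9 and 45.6 CPM in f/f and at 43.0, 43.4 and 27.8 CPM in KO, so every KO library was below every f/f library (-0.53 ± 0.27). Lin37, the MuvB subunit needed for repression by DREAM, was the one higher in every KO library (16.2 to 22.1 CPM, against 12.7 to 13.3 CPM). Lin52, the subunit that links MuvB to p107 and p130, was lower in every KO library (5.67 to 9.55 CPM, against 10.0 to 12.5 CPM). Ranges did not overlap for 1 of 11 genes with KO higher and 2 of 11 with KO lower. Over all genes tested the shares were 2.64% and 2.78%. These genes were named for having the smallest p of the list. Tfdp1, which encodes DP1, was at 364, 406 and 299 CPM in f/f, at 344 and 350 CPM in KO 1 and the library labelled KO 2, and at 136 CPM in KO 3.

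The lists upstream of the pocket proteins held 10 cyclin and kinase genes and 7 inhibitor genes. In the test between library numbers 2 of 10 and 2 of 7 passed (9.09% of all genes did). Between genotypes 0 passed in edgeR or in DESeq2 without the replicate block. At an unadjusted p under 0.05 in edgeR the count was 0 of 10 cyclin and kinase genes and 1 of 7 inhibitor genes. Of the 10 cyclin and kinase genes 2 had positive log2 fold changes (median -0.26; -0.06 without KO 3), and of the 7 inhibitor genes all 7 had (median 0.44; -0.05 without KO 3), against 52.5% of all genes. The D-type cyclin genes Ccnd1 and Ccnd2, whose products activate CDK4 and CDK6, passed the test between numbers (edgeR, adjusted p = 0.00641 and 0.0383). Ccnd1 was at 17.6 and 11.0 CPM in f/f 3 and KO 3 and at 0.764 to 1.38 CPM in the other 4 libraries. The inhibitor genes Cdkn1a, encoding p21, and Cdkn2b, encoding p15, also passed (adjusted p = 0.0137 and 0.0384), both higher in number 3. Cdkn1a was at 758 and 979 CPM in f/f 3 and KO 3 and at 228 to 404 CPM in the others. For Ccnd2 the log2 differences within numbers were -1.53, -0.78 and -0.79. For Ccnd3 they were 1.04, 0.34 and 0.18. Of this pair only Ccnd2 was called between genotypes in any of 4 fits. That fit was DESeq2 with the replicate block, which called 1.62% of all genes tested.

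Genes that E2Fs activate at the entry to S phase were not called between genotypes (0 of 46 in edgeR, in DESeq2 and at an unadjusted p under 0.05 in edgeR), and 6 of 46 had positive log2 fold changes (13.0%, against 52.5% of all genes) with a median of -0.19. Of these target genes 8 of 46 (17.4%, against 9.09% of all genes) passed the test between numbers, all lower in number 3 than in number 1. They were Mcm4, Mcm10, Pole, Uhrf1, Dnmt1, Brca1, Atad2 and Clspn. Clspn, encoding the checkpoint mediator claspin, was at 86.6, 57.7 and 31.3 CPM in f/f and 87.8, 58.6 and 15.0 CPM in KO. Among 32 G2/M genes repressed by DREAM, 7 (21.9%) passed between numbers, again all lower in number 3, and 0 passed between genotypes in edgeR, in DESeq2 or unadjusted in edgeR. Mki67, the proliferation antigen Ki-67, was at 303, 111 and 40.4 CPM in f/f and 402, 158 and 54.3 CPM in KO. For Mki67 and Clspn alike, number 1 was the highest and number 3 the lowest library of both genotypes. Both were chosen after their values were seen, and both had the largest falls of their lists between numbers 3 and 1. The fitted log2 differences were -1.97 for Clspn (list median -0.74) and -2.90 for Mki67 (list median -0.78). Mki67 was higher in the KO library of every number, whereas 25 of the 32 G2/M genes had negative log2 fold changes between genotypes.

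Set beside the members, the target lists were lowest in KO 3. That library was also the lowest for 8 of the 10 members and for 31.9% of all genes tested. The mean centred log2 CPM of the S phase targets was -0.78 in KO 3, -0.26 in f/f 3 and 0.17 to 0.31 in the other 4 libraries. That of the G2/M genes was -0.76, -0.39 and 0.14 to 0.41. The inhibitor list ran the other way, with 1.13 in KO 3, 0.57 in f/f 3 and -0.82 to -0.07 in the others. E2f2 did not follow the target lists: it was at 0.15 in KO 3 and at -0.69 in f/f 2, where the S phase targets were at 0.31. Without KO 3 the median log2 fold change of the S phase targets was 0.06 and that of the G2/M genes 0.08, from -0.19 and -0.10 with it.

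**Figure D4:**
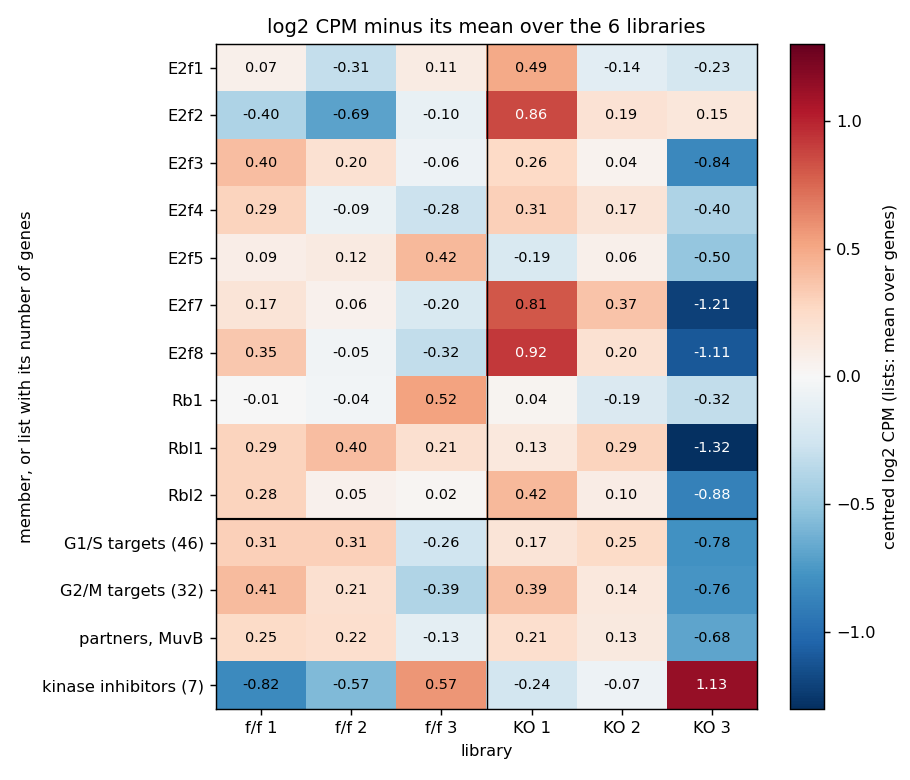
Heat map of log2 CPM minus its mean over the 6 libraries (colour and printed values) for the 10 members and, below the line, the mean over the genes of 4 lists (rows), in each library (columns). KO 3 is the lowest column for 8 of the 10 members, among them E2f7 (-1.21), E2f8 (-1.11) and Rbl1 (-1.32), as it is for 31.9% of all genes tested. The target lists are lowest there too (-0.78 and -0.76), whereas the kinase inhibitors are highest there (1.13).

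Transcripts of mature myeloid cells moved with the same libraries. The 13 tested late neutrophil markers had summed levels of 4143 CPM (KO 3), 2276 CPM (f/f 3) and 2102 CPM (KO 1), and of 450 to 791 CPM elsewhere. Of these 13 genes 12 had positive log2 fold changes between genotypes (92.3%, against 52.5% of all genes). Their median was 1.57 (0.02 over all genes). The 14 monocyte and macrophage markers summed to 2585 and 2464 CPM in KO 3 and f/f 3 and to 738 to 1237 CPM elsewhere. KO 1 thus combined high neutrophil markers with the highest E2f2, E2f7 and E2f8, and KO 3 combined the highest with the lowest E2f7 and E2f8. Between numbers, 5 of the 13 neutrophil and 10 of the 14 monocyte and macrophage markers passed the test, against 9.09% of all genes. These markers were all higher in number 3. Of 6 tested fibroblast and endothelium markers 5 passed the test between numbers, again all higher in number 3. Col1a1, a collagen gene, had 346 and 397 reads in f/f 3 and KO 3 and 81 to 108 reads elsewhere. The list's summed level was 129 to 215 CPM, most of it from Pecam1, which myeloid cells also express. The part of all these cells in the members' levels was not tested. In bulk RNA a smaller share of cycling cells and less transcript per cell cannot be told apart. Of the 12 erythroid markers, of interest for E2f2, 5 passed the filter. Positive log2 fold changes between genotypes, as E2f2 had, were found for 4 of these 5 (80%, against 52.5% of all genes). The median of the 5 was 0.95 (0.02 over all genes). Their mean centred log2 CPM was -0.53, 0.25 and -0.48 in f/f and -0.53, 1.16 and 0.12 in KO, so the list was highest in the library labelled KO 2, whereas E2f2 was highest in KO 1. Tfrc, the transferrin receptor gene that dividing cells of many kinds express, made up nearly all of the list's summed level (167 to 678 CPM), and the globin gene Hbb-bs had at most 3.54 CPM of the unscaled total. The part of erythroid transcripts in the level of E2f2 was not tested.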

How the data were processed

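The authors deposited raw counts (whole numbers, 1 row per gene) for 3 Gata2 f/f and 3 Gata2 KO samples. Per the labels' protocols, libraries were made from poly(A) RNA with a NEBNext Ultra II kit. Tools named in the submitters' processing notes are HTSeq, kallisto and DESeq2, without roles or versions, with mm10 as the build. Neither the annotation nor the use of strand is given there. Symbols, positions and merged exon lengths came from GENCODE M21 (49326 of 49585 identifiers matched without the version), and promoter windows came from RefSeq (GRCm38.p6).

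The members and all gene lists were chosen with earlier results of these data known. Genes were kept by filterByExpr (minimum count 10; 13744 genes with 99.9% of counts) and scaled by TMM. edgeR 4.0.16 (R 4.3.3) tested genotype, and library number with genotype in the model, by its quasi-likelihood F-test with Benjamini-Hochberg adjustment over all genes and a threshold of 0.05. Fold changes are log2 of KO over f/f, and standard errors are the fold change over the root of F. Log2 CPM used a prior count of 2. The scripts were tested on simulated data. Named were the 10 members, Gata2, the 3 nearest genes of each member and up to 4 genes of smallest p per list; other genes named (among them Tfdp1, Ccnd1, Cdkn2b, Clspn and Mki67) were chosen after their values were seen.

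After subtracting group means, log2 CPM correlated between equal numbers at 0.29, 0.55 and 0.65, all over the 0.1 set as the rule for pairing. Unlike numbers also passed that rule, f/f 1 with KO 2 at 0.46 and f/f 2 with KO 1 at 0.104. Since f/f 1 was closer to KO 2 than to KO 1, the rule cannot show that numbers 1 and 2 pair. Libraries numbered 3 correlated with unlike numbers of the other genotype at -0.64 to -0.25. What a number stands for is not in the labels. Alternatives were DESeq2 1.42.0 and its size factors, no filter, the replicate block, and leaving out each library or both of number 3. DESeq2 with the block and leaving out both libraries numbered 2 were added after seeing the data.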

Additional observations from a re-analysis of the deposited data

How the results depend on the processing

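No alternative called a member between genotypes. The count over all genes was 0 in every unblocked edgeR fit and with the replicate block, and leaving out each library in turn kept it at 0. It was 7 with DESeq2, 222 with DESeq2 and the replicate block, and 27 without both libraries numbered 2 in a fit with the replicate block. With the replicate block the log2 fold change was 0.80 for E2f2 and -0.58 for Rbl1, and the block changed no call of a member. Over 14 alternatives the sign never turned for E2f2 (0.53 to 1.07), E2f3 (-0.54 to -0.061), E2f5 (-0.64 to -0.20), Rb1 (-0.46 to -0.079) and Rbl1 (-0.84 to -0.11). It turned for E2f1 in 2, E2f4 in 5, E2f7 in 4, E2f8 in 3 and Rbl2 in 2. Between library numbers, 1249 genes were called, and 757 to 3460 when each library was left out (lowest without Gata2 KO 3, highest without Gata2 f/f 3). The count was 2348 with no filter on low counts and 2870 with DESeq2's likelihood ratio test, and each of these called 1 member, E2f8. Leaving out each library gave 0 to 5 members. Such fits keep 1 library of that number, which is assumed to vary like the others. Depth limits E2f5 (29 to 60 reads). The other members had at least 201 reads per library.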
